A study of Mus musculus with 10 samples.

Results

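The genes described here encode the proteasome, its activators, inhibitor and assembly chaperones, together with Nfe2l1, measured by RNA-seq in the interscapular brown adipose tissue (iBAT) of mice on high-fat diet (HFD). They were chosen by symbol: protein-coding genes named Psma, Psmb, Psmc, Psmd, Psme, Psmf or Psmg followed by a number, plus Nfe2l1, with a mean above 1 CPM (reads scaled to a common library size) over the 10 mice. Of 51 genes that matched, 49 passed the filter, out of 13739 genes tested and 41249 gene identifiers counted. The 2 that did not pass are the tissue-restricted core subunits Psma8 of the testis, with 4 reads over all mice, and Psmb11 of the thymus, with 1 read. The symbol rule also took in Psmc3ip, which acts in homologous recombination and is no proteasome gene, and Psme2b, an intronless copy of Psme2; they were the members nearest to the filter, at mean levels of 1.13 and 3.42 CPM.

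The study asked what loss of the receptor tyrosine kinase Axl does in diet-induced obesity. iBAT of 5 Axl KO mice was compared with iBAT of 5 wild-type (WT) littermates, all male, on the C57Bl6 background aged 6 to 8 weeks when the HFD began, which then lasted 24 weeks. Age and duration are those of the series record, and the paper's text differs on both. The KO is constitutive and whole-body: the knockout-first cassette interrupts Axl in every tissue, so that a difference in iBAT need not arise there. Each library came from the whole depot of a single mouse, and p-values measure the spread between these 10 mice.

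The proteasome degrades proteins tagged with ubiquitin. Its barrel-shaped 20S core is built of outer alpha rings and inner beta rings, in which Psmb5, Psmb6 and Psmb7 carry the catalytic sites; the 19S particle caps the barrel, recognises ubiquitin, and unfolds and feeds in the substrate. Under interferon, Psmb5, Psmb6 and Psmb7 are replaced in new particles by Psmb8, Psmb9 and Psmb10 to form the immunoproteasome. NFE2L1 (also called NRF1 or TCF11) is a transcription factor held at the endoplasmic reticulum that is processed and released when proteasome activity falls short, and raises transcription of proteasome genes; in brown fat it is known for sustaining proteasome activity in cold and obesity.

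Axl itself separated the genotypes, with 0.437 to 2.01 CPM in Axl KO mice against 38.2 to 52.3 CPM in WT mice (log2 fold change -4.77, SE 0.20, adjusted p = 1.10e-07 in edgeR). It was the sole gene of the 13739 with an adjusted p under 0.05, so that the background of such calls was 0.00728%; DESeq2 called 9 genes. Total counts per mouse lay between 5431014 and 9580215. The 13 brown adipocyte markers summed to 16783 to 21283 CPM in Axl KO mice (mean 19051.7 CPM). In WT mice they summed to 15670 to 17856 CPM (mean 16650.5 CPM), so that the ranges overlapped. Of the 13, 5 (Cox7a1, Cox8b, Ucp1, Dio2 and Elovl3) were higher in Axl KO at an unadjusted p under 0.05. That is 38.5%, against 4.54% of all tested genes. For 3 of the 13 the log2 fold change was below 0: Ppara (-0.20), Plin1 (-0.10) and Ebf2 (-0.09). Muscle transcripts varied far more: 12 skeletal muscle markers summed to 31.3 and 8.57 CPM in Axl KO mice 1 and 2, to between 665 and 3655 CPM in Axl KO mice 3 to 5, and to between 860 and 4259 CPM in WT mice, with the highest value in WT mouse 3. The summed macrophage markers ranged over 160 to 286 CPM in Axl KO and 180 to 270 CPM in WT, and of the B and T cell markers Ptprc alone passed the filter. In RNA of a whole depot, fewer cells of a type and less RNA per cell cannot be told apart.

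Levels of different genes were compared per length, as CPM per kb of each gene's principal transcript. In WT mice Nfe2l1 had 135 CPM per kb, second among the 49 genes after Psmd8, a 19S lid subunit, with 146 ± 15.4 CPM per kb (SD, n = 5); the spread of these neighbours overlapped, as Nfe2l1 varied by 6.47 CPM per kb (SD). The catalytic subunits Psmb7 (122 CPM per kb) and Psmb6 (110.0 CPM per kb) and the structural subunit Psmb3 (111 CPM per kb) followed. The 14 constitutive core subunits had a median of 67.7 CPM per kb and the 17 subunits of the 19S particle a median of 40.6 CPM per kb. These levels and their order depend on the length used. With all annotated exons as length, an alternative chosen after seeing the data, Nfe2l1 (116 CPM per kb) was highest, followed by Psma6 (85.5 CPM per kb) and Psmd8 (73.3 CPM per kb), Psmb7 stood at 41.3 CPM per kb, and the medians were 34.5 CPM per kb for the core and 24.7 CPM per kb for the 19S particle.

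Although each kind of subunit occurs in equal copies per ring, transcript levels per length differed widely among them. Within the 20S core they ran from 21.7 CPM per kb for Psma5 to 122 CPM per kb for Psmb7, a 5.62-fold range, and within the alpha ring the range was 4.67-fold. The 6 ATPases of the 19S base lay between 32.3 and 60.1 CPM per kb, a 1.86-fold range. With all annotated exons as length these ranges were 4.93-fold for the core, 4.39-fold for the alpha ring and 3.35-fold for the ATPases. The inducible subunits Psmb8, Psmb9 and Psmb10 lay far lower, at 6.03, 4.17 and 12.9 CPM per kb, near the assembly chaperones, which had medians of 7.87 CPM per kb for the 19S set and 8.85 CPM per kb for the 20S set.

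**Figure D1:**
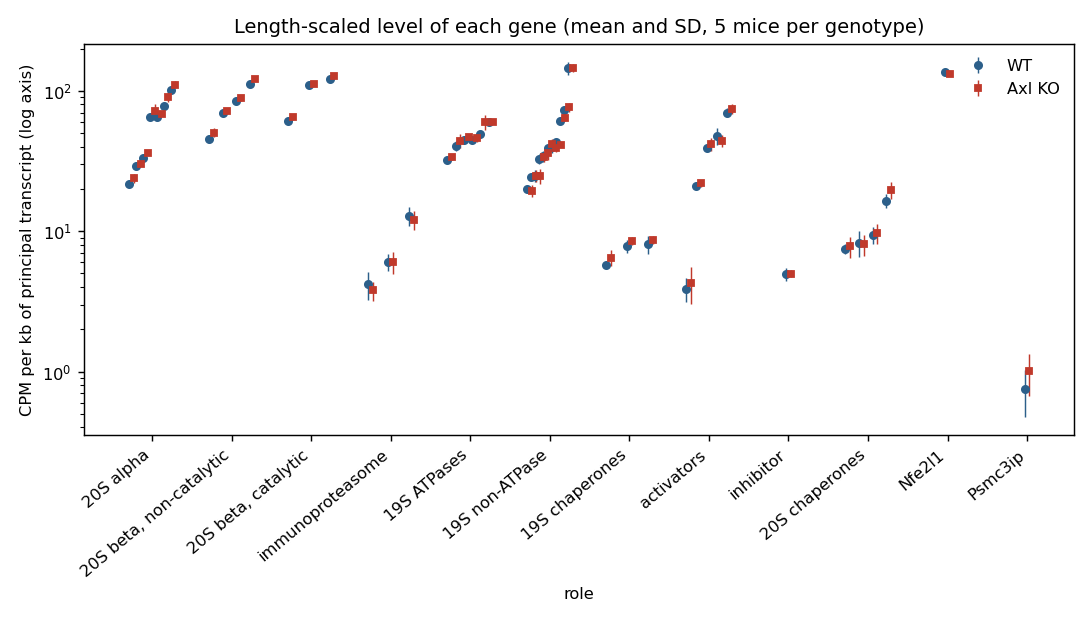
Level of each of the 49 genes in CPM per kb of principal transcript (log axis), grouped by role; circles are the mean of 5 WT mice, squares the mean of 5 Axl KO mice, and bars the SD. Subunits of the 20S core and 19S particle and Nfe2l1 lie between 19.4 and 146 CPM per kb in both genotypes, while the immunoproteasome subunits lie at 12.9 CPM per kb or lower.

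No member differed between the genotypes after adjustment: 0 of 49 had an adjusted p under 0.05 in edgeR, and the lowest was 0.571. At an unadjusted p under 0.05, 8 of the 49 (16.3%) were higher in Axl KO, against 4.54% of all tested genes, and 0 were lower, against 3.86%. With all tested genes counted in either direction, the background of the 16.3% was 8.399%. The excess over this two-direction background depended on the model. DESeq2 gave 0 adjusted and 4 unadjusted calls (8.16% against 6.93% of all genes in either direction). No filter on low counts gave 3 (6.12% against 6.49%) and GC and length offsets 4 (8.16% against 8.38%). The muscle marker covariate gave 2 (4.08% against 6.87%). In each of these models every member called was higher in Axl KO, while the shares of all genes count both directions. Shares of all genes called higher alone were not taken for these models. The 8 were Psmc4, Psma1, Psmb3, Psma3, Psmg1, Psmb1, Psma6 and Psma5. The Axl KO mean was above WT for 38 of 49 members, against 49.8% of all tested genes, and the median log2 fold change of the members was 0.06, against -0.00059 for all tested genes. For 0 members were all Axl KO mice above all WT mice, a pattern seen in 0.735% of all genes, and for 0 were they all below, as in 0.619%. The count of 8 changed with single mice, as did the share of all genes in either direction. The count was 2 without Axl KO mouse 1 (4.08% against 5.94%) and 4 without Axl KO mouse 2 (8.16% against 7.95%). It was 2 without WT mouse 3 or WT mouse 4 (4.08% against 7.39% and 7.90%). It was 3 without WT mouse 5 (6.12% against 6.74%). Without Axl KO mice 3 and 4 in turn it was 8 (16.3% against 14.8%) and 9 (18.4% against 7.56%). Without Axl KO mouse 5, WT mouse 1 or WT mouse 2 it was 6 (12.2% against 7.07%, 6.70% and 7.70%).

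**Figure D2:**
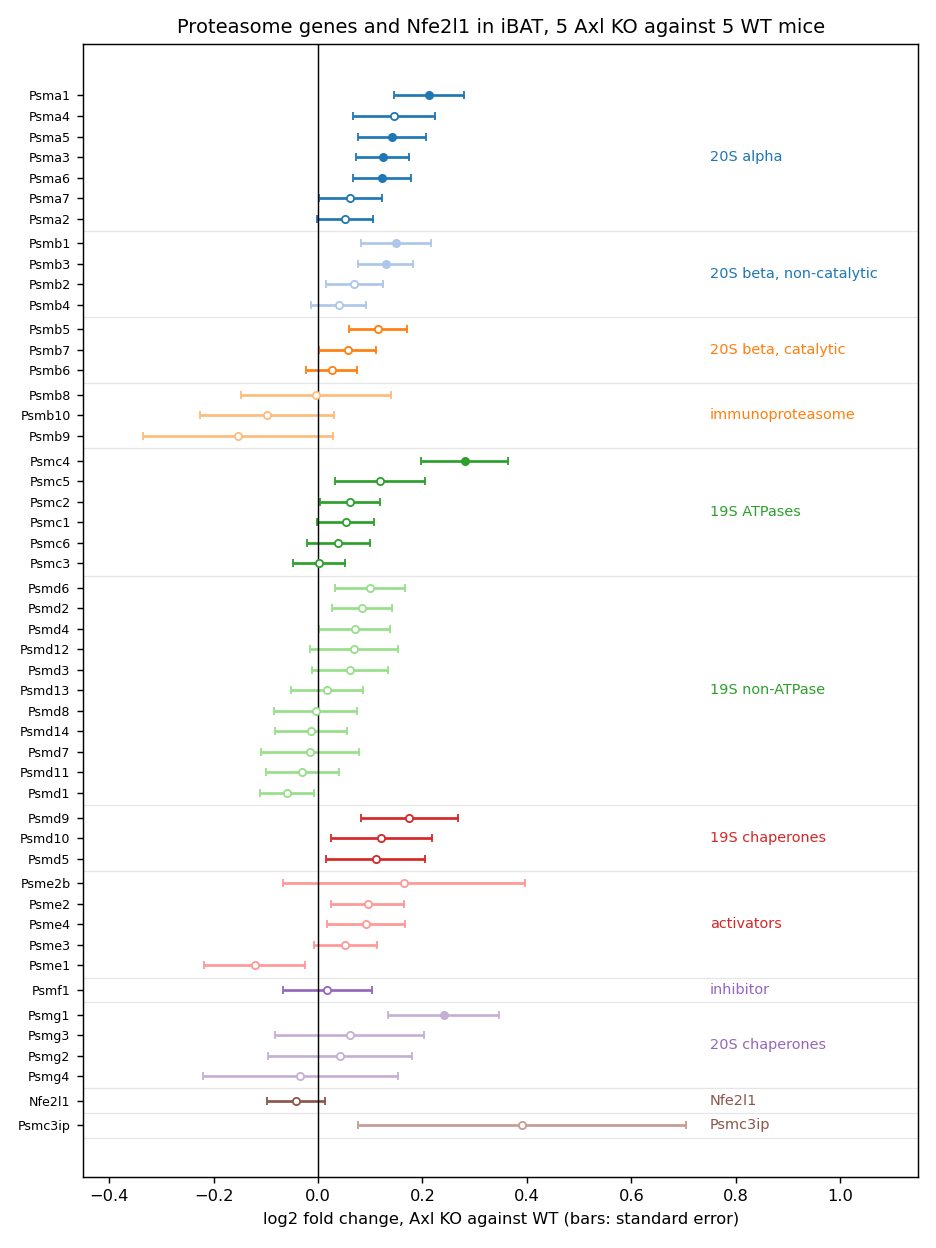
Fitted log2 fold change of Axl KO against WT for each of the 49 genes, grouped by role, with the standard error as the bar; filled points have an unadjusted p under 0.05 in edgeR and open points do not. All 14 core subunits lie to the right of 0, the 3 immunoproteasome subunits lie to the left, and 0 genes passed adjustment.

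The alpha ring forms the gate of the barrel. All 7 of its tested subunits had a log2 fold change above 0, against 49.8% of all tested genes. Their median was 0.12, with a range of 0.05 (Psma2) to 0.21 (Psma1). At an unadjusted p under 0.05 in edgeR 4 of them (57.1%) were higher, against 4.54% of all tested genes. Psma1 measured 116, 115, 95.9, 104 and 116 CPM in Axl KO mice 1 to 5 and 95.4, 96.8, 94.8, 99.0 and 85.3 CPM in WT mice 1 to 5. Axl KO mouse 3 was the sole Axl KO mouse inside the WT range. The log2 fold change was 0.21 (SE 0.067, adjusted p = 0.571 in edgeR).

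Psma3 followed with 108, 106, 101, 100 and 101 CPM in Axl KO against 93.1, 95.9, 89.1, 94.0 and 100.4 CPM in WT. WT mouse 5 reached into the Axl KO range, and the other 4 WT mice lay below it (log2 fold change 0.12, SE 0.051, adjusted p = 0.571 in edgeR). Psma6 and Psma5 had log2 fold changes of 0.12 (SE 0.056, adjusted p = 0.588) and 0.14 (SE 0.065, adjusted p = 0.593) in edgeR, with overlapping genotypes in both genes. Psma4 had a fold change as large as that of Psma5, 0.14, but a wider error (SE 0.078), since its values in Axl KO ran from 70.6 to 98.8 CPM. Psma7 and Psma2, the alpha subunits with the lowest fold changes, stood at 0.06 (SE 0.061) and 0.05 (SE 0.054).

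Of the 4 beta subunits without a catalytic site, Psmb3 and Psmb1 (50%) were higher at an unadjusted p under 0.05 in edgeR, against 4.54% of all tested genes. Psmb3 measured 99.4, 90.0, 91.7, 93.4 and 92.0 CPM in Axl KO and 90.1, 88.6, 80.9, 84.4 and 82.6 CPM in WT. The genotypes met at a single pair, Axl KO mouse 2 and WT mouse 1 (log2 fold change 0.13, SE 0.053, adjusted p = 0.571 in edgeR). Psmb1 had 88.4 ± 6.28 CPM in Axl KO against 79.8 ± 5.51 CPM in WT (SD, n = 5 each), and its genotypes overlapped more widely. Psmb2 and Psmb4 had log2 fold changes of 0.07 (SE 0.055) and 0.04 (SE 0.053).

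Of the 3 catalytic subunits of the constitutive core, 0 had an unadjusted p under 0.05. Psmb5, which cuts after hydrophobic residues, measured 59.1, 54.7, 60.6, 57.8 and 62.1 CPM in Axl KO and 53.2, 57.1, 51.0, 55.2 and 55.1 CPM in WT. Axl KO mouse 2 lay below 3 of the WT mice, and the log2 fold change was 0.12 (SE 0.056, adjusted p = 0.601 in edgeR). Psmb7, the trypsin-like subunit, had 147 ± 6.99 CPM against 141 ± 6.35 CPM (log2 fold change 0.06, SE 0.055), and Psmb6, the caspase-like subunit, 89.4 ± 2.62 CPM against 87.8 ± 3.17 CPM (log2 fold change 0.03, SE 0.049; SD, n = 5). The 95% intervals of the differences ran from -0.396% to 17.8% for Psmb5, from -4.24% to 13.0% for Psmb7 and from -5.39% to 9.64% for Psmb6.

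Seen by mouse, many core subunits were high or low in the same animals. Of the 14, 10 had their lowest value in WT mouse 3 and 6 their highest in Axl KO mouse 1. Their summed level was 1271, 1242, 1191, 1190 and 1251 CPM in Axl KO mice 1 to 5 and 1173, 1166, 1103, 1156 and 1127 CPM in WT mice 1 to 5. All Axl KO sums lay above all WT sums, and the fold change of the median core gene corresponded to 8.60%. The sum is a description of 14 genes of the same mice and was given no test. Because many core subunits moved together by mouse, the 14 are not independent results. Over all mice the log2 fold change was above 0 in 14 of 14 core genes, against 49.8% of all tested genes. It stayed above 0 in 14 of 14 with each mouse left out in turn, and the median over the core was then 0.09 to 0.13. With GC and length offsets it was above 0 in 13 of 14, and the core median was 0.0757.

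The mouse with the lowest core sum, WT mouse 3, had the highest summed muscle markers, and the Axl KO mice with the lowest muscle markers, 1 and 2, were among the 3 with the highest core sums. Axl KO mouse 5 had the second highest core sum and 3655 CPM of muscle markers. With the muscle marker level as a covariate, 13 of 14 core genes had a log2 fold change above 0, the core median was 0.08 in place of 0.12, and 2 members had an unadjusted p under 0.05. Muscle content as a cause of the core levels was not tested. Nor was the part of those brown adipocyte markers that were higher in Axl KO.

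**Figure D3:**
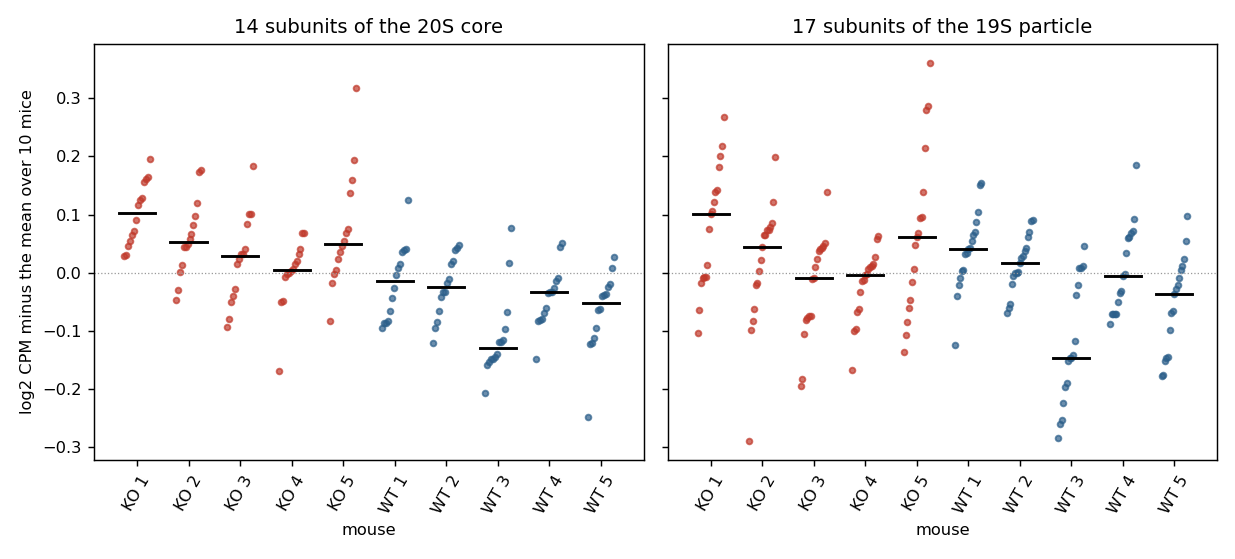
Log2 CPM of each of the 14 subunits of the 20S core (left) and of the 17 subunits of the 19S particle (right) in every mouse, minus the gene's mean over the 10 mice; points are genes, black lines the median over genes, red Axl KO and blue WT. The core medians run from 0.00 to 0.10 in Axl KO and from -0.13 to -0.01 in WT, while the 19S medians overlap, and WT mouse 3 is lowest in both panels.

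In the 19S particle the picture was mixed. Of its 17 subunits, 12 (70.6%) had a log2 fold change above 0, against 49.8% of all tested genes, with a median of 0.05. At an unadjusted p under 0.05 in edgeR 1 (5.88%) was higher, against 4.54% of all tested genes. The summed 19S level was 1489 to 1571 CPM in Axl KO and 1375 to 1554 CPM in WT, and the genotypes overlapped. The ratio of the summed 20S core to the summed 19S particle was 0.804 ± 0.0083 in Axl KO and 0.773 ± 0.0173 in WT (SD, n = 5 each). Here WT mouse 3, at 0.802, fell within the Axl KO range of 0.792 to 0.811, whereas the other WT mice lay between 0.755 and 0.772. That mouse had the lowest sum of both particles, 1103 CPM for the core and 1375 CPM for the 19S particle.

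The 6 ATPases of the base, which unfold the substrate, all had fold changes above 0, against 49.8% of all tested genes. Psmc4 had the lowest unadjusted p of all members: 94.4, 82.8, 74.5, 81.7 and 101 CPM in Axl KO against 71.9, 77.3, 64.4, 73.8 and 69.5 CPM in WT. WT mouse 2 lay above Axl KO mouse 3, and the other 4 Axl KO mice lay above every WT mouse. The difference was 0.28 on the log2 scale (SE 0.084, adjusted p = 0.571 in edgeR), and it stayed between 0.22 and 0.33 with each mouse left out in turn. Psmc5 came next at 0.12 (SE 0.087), with 48.5 to 67.4 CPM in Axl KO and 48.7 to 57.9 CPM in WT. Psmc6 (0.04, SE 0.060) and Psmc3 (0.00, SE 0.050) were lowest.

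Among the 11 non-ATPase subunits, 6 (54.5%) had a fold change above 0, against 49.8% of all tested genes, and 5 below. There were 0 at an unadjusted p under 0.05. Psmd6 (0.10, SE 0.067) and Psmd2 (0.08, SE 0.058), the latter a large scaffold subunit of the base, were highest. Psmd1 (-0.06, SE 0.052), the other large scaffold of the base, and the lid subunit Psmd11 (-0.03, SE 0.069) were lowest. For all 11, the 95% interval of the difference lay within -0.22 and 0.25 on the log2 scale.

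The 3 chaperones that assemble the base had log2 fold changes of 0.17 for Psmd9 (SE 0.093), 0.12 for Psmd10 (SE 0.097) and 0.11 for Psmd5 (SE 0.095), with 0 at an unadjusted p under 0.05. Of the 20S chaperones, Psmg1, which pairs with Psmg2 to build the alpha ring, measured 22.2, 20, 17.4, 18.6 and 24.3 CPM in Axl KO and 20.3, 17.4, 15.1, 16.5 and 17 CPM in WT. Only Axl KO mice 1 and 5 lay above every WT mouse (log2 fold change 0.24, SE 0.107, adjusted p = 0.581 in edgeR). Its partner Psmg2 had 10.3 ± 1.64 CPM against 10 ± 1.39 CPM (SD, n = 5), a log2 fold change of 0.04 (SE 0.138). Psmg3 and Psmg4, the pair that acts with them, had 0.06 (SE 0.142) and -0.03 (SE 0.187) at levels of 6.76 and 4.53 CPM. At these levels a difference of the size seen in the core was not detectable.

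The 3 immunoproteasome subunits had fold changes at or below 0, where the 14 constitutive core subunits lay above 0, and 0 of the 3 had an unadjusted p under 0.05. Psmb8 measured 7.25, 11.9, 11, 9.17 and 9.79 CPM in Axl KO and 11.3, 9.94, 10.5, 7.74 and 9.56 CPM in WT. Psmb9 measured 5.71, 5.56, 4.2, 5.82 and 4.33 CPM in Axl KO and 6.42, 5.71, 6.94, 3.61 and 5.54 CPM in WT. Psmb10 measured 15.4, 19.5, 16.1, 15.3 and 12.6 CPM in Axl KO and 18.7, 18.8, 18.7, 13.6 and 14.5 CPM in WT. The genotypes overlapped throughout, and WT mouse 4 was the lowest WT mouse for each of the 3. Log2 fold changes were 0.00 (SE 0.143), -0.15 (SE 0.182) and -0.10 (SE 0.128), and the intervals were wide, from -19.6% to 23.6% for Psmb8, from -31.5% to 18.1% for Psmb9 and from -22.9% to 13.4% for Psmb10.

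To compare inducible with constitutive subunits, each inducible transcript was taken as a percent of its partner per length in the same mouse. These are RNA ratios of the whole depot. Exchange in assembled particles was not measured, and neither were the cells that gave each transcript. Psmb8 stood at 9.24% ± 1.92 of Psmb5 in Axl KO and 10.02% ± 1.62 in WT (SD, n = 5; exact permutation test, two-sided p = 0.468, adjusted over 3 ratios 0.484). Psmb9 stood at 3.37% ± 0.450 of Psmb6 in Axl KO and 3.80% ± 0.883 in WT (exact permutation p = 0.484, adjusted 0.484). Psmb10 stood at 9.51% ± 1.5 of Psmb7 in Axl KO and 10.6% ± 1.83 in WT (exact permutation p = 0.349, adjusted 0.484). None of these 3 differences exceeded the spread between mice, and the highest ratio in any mouse was 12.5%. The percents themselves depend on the length: with all annotated exons the WT means were 4.82% for Psmb8 to Psmb5, 3.29% for Psmb9 to Psmb6 and 24.0% for Psmb10 to Psmb7, while the log2 differences between genotypes and their tests do not change with length. The exact test of 5 against 5 mice could reach a p of 0.00794.

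**Figure D4:**
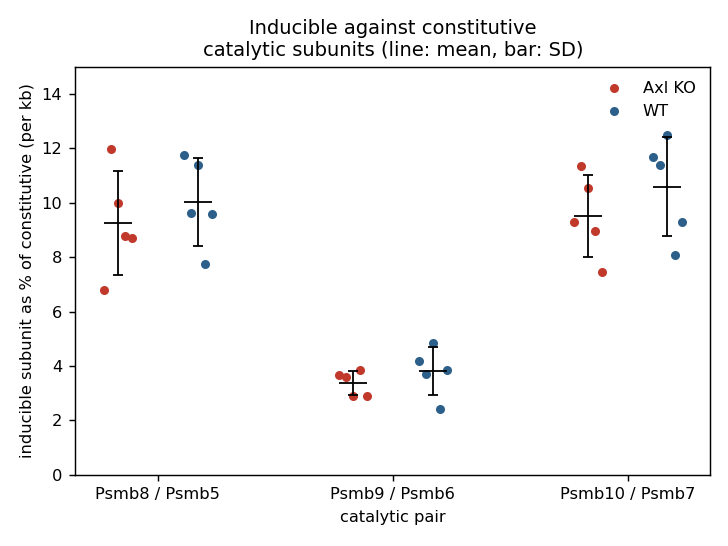
Inducible catalytic subunits as a percent of their constitutive partner, per kb of transcript, in each of the 5 Axl KO (red) and 5 WT (blue) mice; horizontal lines are means and bars SDs. The genotypes overlap for each pair, and values lie between 2.43% and 12.5%.

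Psmb9 was then followed across the 10 mice with genes that share its interferon response. Pearson's r with log2 CPM was 0.720 for Psme1 (rho 0.770), 0.683 for Psmb10 (rho 0.539), 0.591 for Psme2 (rho 0.576), 0.471 for Tap1 (rho 0.455) and 0.316 for Psmb8 (rho 0.236). The permutation p was 0.0190, 0.0321, 0.0725, 0.169 and 0.377, or 0.0801, 0.0801, 0.121, 0.211 and 0.377 adjusted over the 5 pairs. For rho the permutation p was 0.0123, 0.116, 0.0890, 0.191 and 0.513, or 0.0614, 0.194, 0.194, 0.239 and 0.513 adjusted. With values centred within genotype, r was 0.705 for Psme1 (permutation, adjusted p = 0.0479) and 0.780 for Psme2 (permutation, adjusted p = 0.0369). Without the 2 mice farthest from the median of Psmb9, r was 0.742 for Psme1, 0.736 for Psmb10, 0.319 for Psme2, 0.818 for Tap1 and 0.178 for Psmb8. It was thus lower than over all 10 mice for Psme2 and Psmb8, and higher for Tap1, Psmb10 and Psme1. So few mice cannot tell such shifts from noise. Psmb9 and Tap1 lie head to head and share 212 bases of exon, and their reads may be split between them.

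The PA28 activator opens the barrel without ATP. Its alpha subunit Psme1 measured 50, 54.7, 44.4, 51.7 and 43.1 CPM in Axl KO and 49.6, 58.4, 62.6, 47.1 and 47.3 CPM in WT, and its beta subunit Psme2 measured 77.0, 76.4, 68.7, 73.2 and 63.8 CPM in Axl KO and 68.7, 73.2, 69.0, 60.5 and 64.4 CPM in WT. The subunits of this heteroheptamer had fold changes on either side of 0: -0.12 for Psme1 (SE 0.097, adjusted p = 0.742) and 0.10 for Psme2 (SE 0.070, adjusted p = 0.713) in edgeR. WT mouse 3 had the highest Psme1 of all mice. Psme2b was too low to read, with 3.60 ± 1.04 CPM against 3.25 ± 0.646 CPM (SD, n = 5).

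Psme3, the nuclear PA28 gamma, had a log2 fold change of 0.05 (SE 0.061) and Psme4, the large activator PA200, 0.09 (SE 0.074). Psme4 had 238 to 307 CPM in Axl KO and 246 to 273 CPM in WT, so Axl KO mice lay at both ends of its range. The inhibitor Psmf1 (PI31) had 19 ± 1.12 CPM against 18.8 ± 1.88 CPM (SD, n = 5), a log2 fold change of 0.02 (SE 0.085). Psmc3ip, with 3 to 12 reads per mouse, had a log2 fold change of 0.39 (SE 0.315) and shares 385 bases of exon with Mlx, which was expressed at 37.1 CPM.

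For Nfe2l1, the regulator, no difference between the genotypes was detected. It measured 601, 621, 611, 633 and 587 CPM in Axl KO and 647, 659, 582, 618 and 639 CPM in WT. The lowest value of all 10 mice belonged to WT mouse 3, the mouse with the lowest 20S core, and the highest to WT mouse 2. Means were 611 ± 17.8 CPM and 629 ± 30.1 CPM (SD, n = 5), and the log2 fold change was -0.04 (SE 0.055, adjusted p = 0.846 in edgeR), with a 95% interval of -10.6% to 5.45%. It thus stood below 0 where the median core subunit stood at 0.12, and a difference of more than 10.6% downward or 5.45% upward lay outside its interval.

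Across the 10 mice Nfe2l1 was compared with each of the other 48 genes. After adjustment 0 of 48 correlations passed, with 2 at an unadjusted permutation p under 0.05; 23 coefficients were positive, and the median r was -0.02. Psmd8 had the highest (r = 0.764, permutation p = 0.00873, adjusted 0.419; rho = 0.770, permutation p = 0.0126, adjusted 0.607) and Psma2 the lowest (r = -0.643, permutation p = 0.0439, adjusted 0.912; rho = -0.527, permutation p = 0.124, adjusted 0.927). With values centred within genotype 33 of 48 were positive and 0 passed. Leaving out WT mice 3 and 2, those farthest from the median of Nfe2l1, left 14 of 48 positive and 0 past adjustment, and without Axl KO mouse 3 the pair with Psmd8 passed (r = 0.888, permutation, adjusted p = 0.0335). Psmd8 is thus the gene of this set whose level was most like that of Nfe2l1 from mouse to mouse, over 10 mice that share a library kit.

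NFE2L1 binds antioxidant response elements, which share the core TGACNNNGC. To show what such a match looks like in these genes, promoters from 250 bases before to 50 bases after the start were taken from RefSeq on GRCm38.p6; 42 of the 49 genes matched, with 49 promoters, and 38 of the 42 had a start within a transcript of the annotation used. The 3 stretches below are examples, written on the gene's strand with the match in capitals. Matches of Psmd12 and Psmc6, 238 to 247 and 218 to 227 bases before the start, are not shown. Nor is that of the remaining promoter among the 6 counted below. The matches shown begin 31, 9 and 47 bases before the RefSeq start of transcription. The stretches lie at chr5:123228129-123228189 (plus strand), chr11:70525318-70525356 (plus strand) and chr14:54618004-54618072 (minus strand). In the Psmb5 stretch 19 bases lie within exons of the annotation used.
Psmd9: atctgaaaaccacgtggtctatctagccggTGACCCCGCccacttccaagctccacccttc
Psmb6: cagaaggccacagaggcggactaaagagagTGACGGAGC
Psmb5: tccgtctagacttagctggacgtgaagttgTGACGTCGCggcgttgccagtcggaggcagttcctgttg

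On either strand, 6 of the 49 promoters (12.2%) held TGACNNNGC, against 12.4% of all 32851 promoters in the table. The stricter sequences TGACTCAGC or TGAGTCAGC, the latter not a form of TGACNNNGC, were found in 0 of 49, against 0.822% of all promoters. CCAAT was found in 18 of 49 (36.7%), against 37.4%. The share in these genes was that of promoters at large, and the search covers these letters in this window alone. Of the 3 genes shown, Psmb5 had a log2 fold change of 0.12, Psmb6 of 0.03 and Psmd9 of 0.17, all with adjusted p-values above 0.6 in edgeR.

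In the pathway around NFE2L1 differences were small. The 17 listed genes cover NFE2L1 processing and partners, and include related factors and regulators such as Nfe2l2, Bach1 and Keap1. Of these 17, 14 were tested, with 0 at an unadjusted p under 0.05 in either direction and a median log2 fold change of -0.02. Vcp, the ATPase that extracts NFE2L1 from the membrane, had 275 ± 13.6 CPM in Axl KO and 283 ± 11.5 CPM in WT (SD, n = 5), and Ddi2, the protease that cleaves it, 100.3 ± 8.55 CPM and 98.4 ± 7.70 CPM. Nfe2l2, the related stress factor, had 91.2 ± 11.3 CPM and 89 ± 14 CPM. These values differed by less than the spread between mice.

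Of 20 other listed subunits, ubiquitin receptors and assembly factors of the 26S proteasome, 19 were tested, with 0 at an unadjusted p under 0.05 and a median log2 fold change of 0.01. Pomp, the maturation factor of the 20S core, had 45.9 ± 2.66 CPM in Axl KO and 41.8 ± 3.25 CPM in WT (SD, n = 5), a log2 fold change of 0.13 (SE 0.068, adjusted p = 0.610 in edgeR). The 7 ubiquitin and E1 genes had a median of 0.06 with 0 at an unadjusted p under 0.05, and 16 of 17 listed interferon and MHC class I genes had a median of -0.03. In the latter list 7 genes had a fold change above 0 and 9 below. The lowest were Irf1 at -0.26 (SE 0.145, unadjusted p = 0.0989) and Tap1 at -0.20 (SE 0.139, unadjusted p = 0.176) in edgeR. The count of this list at an unadjusted p under 0.05 is not reported here. None of these 4 lists held a gene with an adjusted p under 0.05.

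The spread of the members within a genotype was small, which bears on how small a difference could be seen. The coefficient of variation estimated by edgeR beyond counting noise had a median of 8.74% over the members and 7.53% over the core, against 11% over all tested genes, most of which had fewer reads. Some of these reads have a second possible owner: 15 members share exon bases with another gene, 10 of them with a gene above 1 CPM. Psmd13 shares 342 bases with Sirt3 (83.5 CPM), and Psmb7 shares 405 bases with Nek6 (13.4 CPM). The strand setting of the counting is not given in the sources used here, so that the part of such partners in these values was not tested.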

How the data were processed

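RNA of whole iBAT depots of 5 Axl KO and 5 WT mice was sequenced after polyA selection per the labels (TruSeq). The authors deposited raw counts of reads per Ensembl gene, 1 table per mouse. The submitters' processing notes name Trimmomatic 0.36, STAR 2.6.1c and GRCm38.p5, while the paper's methods name other tools for trimming and alignment and rRNA depletion; the counting tool and its treatment of strand and shared reads are not given in the sources used here. Groups came from the sample titles. Gene names, positions and lengths came from GENCODE M21 (41163 identifiers matched, 86 did not).

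Members and lists were chosen with earlier results of these data known. Genes with a mean above 1 CPM were fitted together in edgeR 4.0.16 (quasi-likelihood test, TMM, no covariate, R 4.3.3), with Benjamini-Hochberg adjustment over 13739 genes; DESeq2 1.42.0 was an alternative. Standard errors, intervals (95%) and fold changes come from this fit, CPM from the same TMM factors. Catalytic ratios were tested by exact permutation, and correlations by 100000 permutations (scipy 1.17.1, Python 3.11.15). Genes named with values were the regulator, the catalytic, activator, inhibitor and chaperone genes, the 2 highest and 2 lowest fold changes per remaining role, and any with an unadjusted p under 0.05. A gene of the pathway lists that this rule names is not reported here. Genes from those lists other than Tap1, and the per-length extremes, were chosen after their values were seen. No table repeated another: between any pair of mice the chi-square value was 5.03 per gene or more. The procedure was tested on simulated data. Alternatives were other size factors, filters, models and lengths, a replicate block, a muscle covariate, and each mouse left out.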

Additional observations from a re-analysis of the deposited data

Results flagged for a closer look

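The values of each member and of the 3 catalytic ratios in each genotype were screened for a mouse far from the other 4, by the gap to the nearest mouse as a share of the range (Dixon's test, critical value 0.71 for 5 mice). Of 104 groups of 5 values (98 of genes and 6 of ratios) 3 were flagged, where chance gives about 5.2. WT mouse 3 had the highest Psmb4 of the WT mice, 88.3 CPM against 81.8 CPM in the next (gap 0.815 of the range), although this mouse was lowest for 10 of the 14 core subunits. WT mouse 4 had the highest Psme4 of the WT mice, 273 CPM against 253 CPM (gap 0.743). Axl KO mouse 2 had the highest Psmg4 of the Axl KO mice, 5.86 CPM against 4.17 CPM (gap 0.949).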

How the results depend on the processing

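The count of 0 members past adjustment held in every alternative run. The 8 members at an unadjusted p under 0.05 became 4 in DESeq2, 3 with no filter on low counts and 5 with the replicate block. They became 2 with the muscle covariate, 4 with GC and length offsets and 2 to 9 with a mouse left out. The count was 8 with other size factors or protein-coding genes alone, and 7 with a robust fit or another filter on low counts. The core median was 0.0757 with GC and length offsets. The median of the list of NFE2L1 processing, partners and related factors was 0.0159 with the muscle covariate and -0.0240 to 0.0179 with a mouse left out. That of the other 26S list was -0.00062 to 0.0423 with a mouse left out. Fold changes near 0 changed sign: Psmb6 (-0.00143 with the muscle covariate, -0.00633 with GC and length offsets), Psmb8 (0.0117 with the muscle covariate) and Psmc3 (-0.00822 with GC and length offsets). With a mouse left out they spanned -0.0805 to 0.0863 for Psmb8, -0.0145 to 0.0272 for Psmc3, -0.0695 to 0.0108 for Psmd11, -0.0428 to 0.0494 for Psmf1, -0.0311 to 0.125 for Psmg2, -0.0155 to 0.143 for Psmg3 and -0.151 to 0.0698 for Psmg4. Nfe2l1 pairs past adjustment were 0 to 1, and r of Psmb9 with Psmb8 was -0.0206 to 0.531 (lowest without WT mouse 4). Centring within genotype brought Psmb9 with Psme1 (0.705) and Psme2 (0.780) past adjustment. The looser motif gave 12.2% of promoters. The cause of these changes was not tested.

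All annotated exons as length, chosen after seeing the data, gave WT levels of 116 CPM per kb for Nfe2l1 and medians of 34.5 for the 20S core, 24.7 for the 19S particle and 2.90 for the immunoproteasome; leaving out mice in the correlations was also added then. No pairing of mice by replicate number was seen: same-numbered mice correlated at -0.36 to 0.37, and 1 of 5 Axl KO mice correlated best with its own number. Correlations of so few mice cannot exclude a pairing. With 5431014 to 9580215 counts per mouse, genes under 10 CPM were measured on few reads, which limits the immunoproteasome and chaperone comparisons.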
